A study of Platynereis dumerilii with 97 samples.

Results

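The transcripts described here are 135 of the 10908 in a transcriptome of the annelid Platynereis dumerilii that were abundant in embryos of 52 to 58 h and had fallen below 0.5 of that level at 81 to 94 h. They were chosen by pooled levels in CPM, the summed counts of a transcript over the summed totals of a block of embryos, multiplied by 1000000. The level had to be at least 50 CPM at 52 to 58 h and above the level at 25 to 36 h, over 4 CPM at 25 to 36 h, and over 3 CPM at 1 to 23 h without the library labelled 21 h. These floors were met by 1024 transcripts, of which 135, or 13.2%, were below 0.5 of their 52 to 58 h level at 81 to 94 h, fewer than the limit of 150 that the rule allowed. The other 889 transcripts that met the floors are called the kept transcripts below. Levels at 1 to 36 h, 52 to 58 h and 81 to 94 h therefore chose the members and are given as descriptions with no test.

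Platynereis dumerilii is a marine bristle worm whose larvae pass through named stages. The trochophore swims with a band of cilia, the prototroch. The metatrochophore forms a segmented trunk with chaetal sacs, the pouches that secrete bristles. The nectochaete that follows has parapodia, the paired trunk appendages with which the young worm swims and crawls, and it develops the gut and jaws it needs to begin to feed. The members were chosen by age in hours, and whether they belong to any of these stages was not tested. The identifiers carry no gene names here, so none of the members is given a function.

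The study measured 97 single whole embryos by CEL-Seq, a method that copies the 3′ end of polyadenylated RNA with a barcode for each embryo and amplifies it by transcription in vitro. The labels name no treatment. The embryos came from matings in several containers, were kept at 18 °C and carried labels of 1 to 95 h, 97 h and 120 h after fertilization, with 1 embryo at each hour. No strain or genotype is named in the labels, and nothing in them says which embryos shared parents. Embryos of neighbouring hours are grouped here into windows: 6 of 1 to 6 h, 6 of 7 to 12 h, 11 of 13 to 23 h, 6 of 25 to 30 h, 6 of 31 to 36 h, 7 of 37 to 43 h, 8 of 44 to 51 h, 7 of 52 to 58 h, 7 of 59 to 65 h, 7 of 66 to 72 h, 8 of 73 to 80 h, 14 of 81 to 94 h and 3 of 95 to 120 h. Replicates within a window are therefore embryos of neighbouring ages, and p-values measure the spread between them.

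Transcript totals ran from 3555 to 2577933 counts with a median of 743666, and the lowest, at 62 h, was followed by 247000. Embryos numbered 1 to 50 in the labels (all up to 51 h except 24 h) and those numbered 51 to 97 (52 h and later, with 24 h) differed in make-up. Transcripts with 1 to 5 counts formed a median of 27.3% of those detected in the first 50 libraries and 6.24% in the other 47. The labels name no batch, and age and this difference cannot be told apart across 52 h, so every test below stays on 1 side of it. Several libraries stood apart for these members. The library labelled 48 h lay within the range of 31 to 36 h for 103 of 135 members and below the other embryos of its own window for 63. The library labelled 72 h lay above the other embryos of its window for 32 members and above all of 73 to 80 h for 51. The library labelled 95 h lay above the range of 81 to 94 h for 41 members and below it for 0. The library labelled 24 h lay within the range of 81 to 94 h for 123 members. Tests and shares that rest on the libraries labelled 48, 62, 72 or 95 h are given with and without them.

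The members' median summed share of counts was higher at 37 to 43 h than in any earlier window, was highest at 52 to 58 h and was lower in each window after that up to 81 to 94 h. Together they held 0.801, 0.900 and 1.14% of counts (lowest, median and highest embryo) at 1 to 6 h. At 37 to 43 h these were 2.30, 4.25 and 6.69%. At 44 to 51 h they were 1.50, 8.83 and 10.8%, where the lowest was the library labelled 48 h, without which the window ran from 6.96 to 10.8% with a median of 9.57%. So the share had already risen before 52 h, and every other embryo of 44 to 51 h was above every embryo of 37 to 43 h. At 52 to 58 h the share was 10.5, 11.0 and 13.6%. The step across 52 h cannot be told apart from the difference in make-up of the libraries. The kept transcripts' median share was 33.6% at 44 to 51 h without 48 h and 43.7% at 52 to 58 h.

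The descent took place between 59 and 80 h. The members held 7.47, 8.41 and 9.81% of counts at 59 to 65 h, with a median of 8.39% without the library labelled 62 h. At 66 to 72 h they held 4.37, 5.58 and 10.3%, the highest being the library labelled 72 h, without which the highest was 7.28% and the median 5.43%. At 73 to 80 h they held 1.38, 1.74 and 2.86%. Every embryo of 73 to 80 h was thus below every embryo of 66 to 72 h. At 81 to 94 h the share was 0.522, 0.810 and 1.25%, and in the 3 latest embryos it was 3.86% at 95 h, 0.709% at 97 h and 0.760% at 120 h. In whole embryos fewer cells of a type and less RNA per cell cannot be told apart, and neither can a fall of these transcripts from a rise of all others, except against the spike-ins. Per 1000 counts of the ERCC spike-ins, which are synthetic RNAs of known sequence, the members gave a median of 1091 counts at 52 to 58 h and of 666 counts at 59 to 65 h. Without the library labelled 62 h the latter was 654 counts. The median was 109 counts at 73 to 80 h, and it was 39.3 counts at 81 to 94 h. In share alone, the kept transcripts went from a median of 43.7% of counts at 52 to 58 h to 51.3% at 73 to 80 h. Shares add up to a whole, so this is no measure of a rise against the spike-ins. Such a measure is not given here for the kept transcripts.

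**Figure D1:**
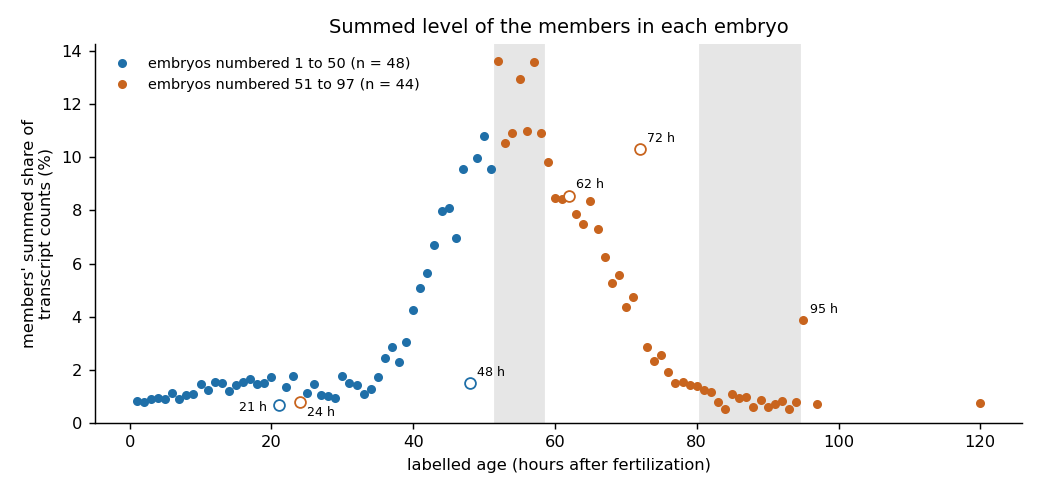
Percent of counts held by the 135 members in each embryo (y axis) against labelled age in hours (x axis); blue marks embryos numbered 1 to 50, orange those numbered 51 to 97, open circles the libraries labelled 21, 24, 48, 62 and 72 h, and grey bands mark 52 to 58 h and 81 to 94 h, which the rule used. The share passes from a median of 0.900% at 1 to 6 h to 11.0% at 52 to 58 h and back to 0.810% at 81 to 94 h, with the libraries labelled 48, 72 and 95 h away from their neighbours.

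A few transcripts carried most of this signal. The level at 52 to 58 h was 50 to 100 CPM in 68 members and 1000 CPM or more in 27, with a median of 99.2 CPM over all 135. The 10 most abundant members held 49.4% of the members' counts at 52 to 58 h and the top 20 held 77.4%. The depth of the loss varied as much. In 38 members the level at 81 to 94 h was under 0.05 of that at 52 to 58 h, in 31 it was between 0.05 and 0.25, and in 66 between 0.25 and 0.5, and the median ratio was 0.237. Scaled to spike-in counts in place of totals, the median ratio was 0.113. That scaling lowers every ratio by the same factor, so all 135 had to stay below 0.5 and this is no separate check. By the medians of embryos, 131 were below 0.5.

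The 38 steep members, those under 0.05, and the 66 shallow members, those from 0.25 to 0.5, also differed in level and in their highest window. The cut was made on a ratio whose denominator is the 52 to 58 h level. These differences may thus follow in part from the cut, and they are given as descriptions. The steep members had a median level of 1371 CPM at 52 to 58 h, 37.7-fold their level at 25 to 36 h, and 36 of the 38 had their highest window between 37 and 58 h. The shallow members had a median level of 78.4 CPM, 1.50-fold their level at 25 to 36 h, and 28 of the 66 were highest between 1 and 23 h. Over all members 72 were highest between 37 and 58 h, 38 between 1 and 23 h, 18 between 59 and 80 h, 5 at 95 to 120 h and 2 between 25 and 36 h. A peak in the hours after which the group is called was thus found in 72 of 135 members, and 29 members had a higher level at 1 to 23 h than at 52 to 58 h. These counts compare libraries of unlike make-up on either side of 52 h, and what that does to them was not tested. At low levels the ratio also rests on few embryos: 71 members were detected in all 7 embryos of 52 to 58 h, and in 10 members 1 embryo held over 0.5 of the counts of that window.

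**Figure D2:**
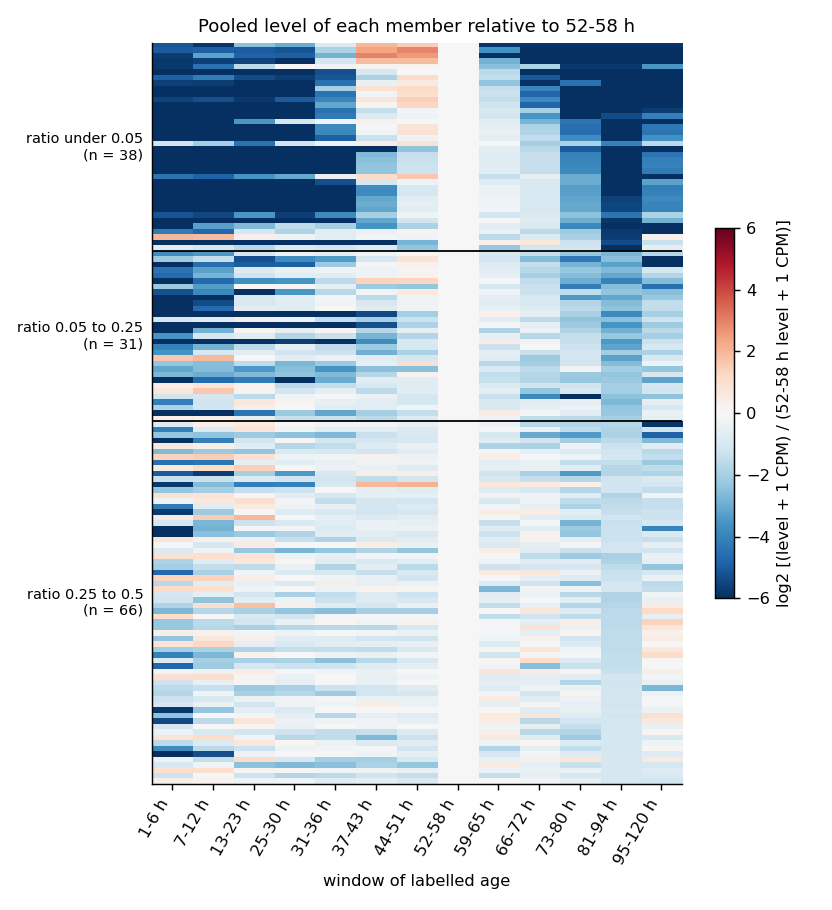
Level of each of the 135 members (lines) by window of hours (columns), as log2 of pooled CPM + 1 relative to 52 to 58 h, with the colour limited to -6 and 6 and windows pooled without the libraries labelled 21, 48, 62 and 72 h. The 38 members with the lowest ratios are mostly low before 37 h and after 80 h, whereas many of the 66 shallow members are also present in the earliest windows.

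The limit of 0.5 divides transcripts that hardly differ. The last inside were PT_v1_tr_03147, at 67.0 CPM at 52 to 58 h and 33.3 CPM at 81 to 94 h (ratio 0.497), and PT_v1_tr_09427, at 925 and 461 CPM (ratio 0.499). The first outside were PT_v1_tr_01200, at 60.0 and 30.1 CPM (ratio 0.502), and PT_v1_tr_07992, at 75.4 and 38.1 CPM (ratio 0.505).

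No count at all was found at 81 to 94 h for 9 members, and the 6 with the lowest ratios were all among these. PT_v1_tr_01861 had 455, 693 and 1198 CPM (lowest, median and highest of 7 embryos) at 52 to 58 h and 0 counts in 14 embryos of 81 to 94 h, at least 1137-fold less when the later window is given 3 counts in all. PT_v1_tr_01548 had 103, 272 and 434 CPM at 52 to 58 h and was at least 511-fold lower later. PT_v1_tr_06302 had 88.4, 250 and 636 CPM and was at least 369-fold lower. These 3 were present in every embryo of 52 to 58 h and in none of 81 to 94 h. PT_v1_tr_07085 had 52.1, 105 and 203 CPM at 52 to 58 h (at least 163-fold). PT_v1_tr_09306 had 0, 56.3 and 139 CPM (at least 130-fold). PT_v1_tr_07071 had 0, 20.7 and 208 CPM (at least 100.4-fold) and was detected in 4 of the 7 embryos, so its loss rests on far fewer embryos than that of PT_v1_tr_01861, and it had counts again at 95 h and 120 h (65.5 and 94.1 CPM).

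The 6 most abundant members had their highest levels in different windows. Their levels before and after 52 h come from libraries of unlike make-up. PT_v1_tr_08510 had 78.9, 8342 and 11228 CPM at 44 to 51 h, the lowest being the library labelled 48 h and the next 6181 CPM. It had 4807, 8002 and 14004 CPM at 52 to 58 h and 2239, 5659 and 7812 CPM at 59 to 65 h. At 66 to 72 h it had 1215, 2551 and 13174 CPM, the highest at 72 h, and at 73 to 80 h 0, 50.3 and 851 CPM. Its median was thus similar at 44 to 51 h and 52 to 58 h and lower after that. The range of 73 to 80 h did not overlap any window from 52 to 72 h. Of 44 to 51 h, only the library labelled 48 h fell into it. PT_v1_tr_08847 had 51.3, 3677 and 8172 CPM at 44 to 51 h and 6079, 8304 and 11565 CPM at 52 to 58 h. It had 2131, 7913 and 9791 CPM at 59 to 65 h, 2387, 4489 and 8832 CPM at 66 to 72 h and 186, 1287 and 2461 CPM at 73 to 80 h. This transcript stayed high for longer, and only the libraries labelled 62 and 72 h, its lowest in their windows, fell into the range of 73 to 80 h.

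PT_v1_tr_03098 had 82.9, 3522 and 11596 CPM at 44 to 51 h and 1295, 7035 and 18932 CPM at 52 to 58 h. It had 0, 412 and 4653 CPM at 59 to 65 h, with 0 in the shallow library labelled 62 h and 155 CPM in the next. At 66 to 72 h it had 1.55, 63.1 and 26387 CPM, and at 73 to 80 h 0, 1.78 and 29.6 CPM. The value of 26387 CPM at 72 h was its highest in any of these windows, while the 6 other embryos of 66 to 72 h had no more than 120 CPM. PT_v1_tr_02264 was late by contrast. It had 0, 69.0 and 184 CPM at 37 to 43 h, 0, 499 and 2262 CPM at 44 to 51 h and 2112, 5815 and 12032 CPM at 52 to 58 h. It was still at 355, 4981 and 12724 CPM at 59 to 65 h, at 689, 6554 and 13804 CPM at 66 to 72 h and at 733, 1864 and 4635 CPM at 73 to 80 h. Its lowest values at 59 to 65 h and 66 to 72 h were those of the libraries labelled 62 and 72 h.

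PT_v1_tr_04936 and PT_v1_tr_04939 belong to a run of 4 consecutive identifiers, PT_v1_tr_04936 to PT_v1_tr_04939, all of which are members. PT_v1_tr_04936 had 17.8, 1917 and 3737 CPM at 44 to 51 h, 2823, 5019 and 6396 CPM at 52 to 58 h and 1879, 3184 and 4131 CPM at 59 to 65 h. It had 1119, 1823 and 3157 CPM at 66 to 72 h and 54.5, 298 and 875 CPM at 73 to 80 h. PT_v1_tr_04939 had 11.8, 1870 and 3760 CPM at 44 to 51 h, 2937, 5198 and 6352 CPM at 52 to 58 h and 1825, 3242 and 5327 CPM at 59 to 65 h, then 1131, 1819 and 3284 CPM at 66 to 72 h and 43.2, 292 and 962 CPM at 73 to 80 h. The pair had nearly the same levels throughout and no overlap between 73 to 80 h and any of the 3 windows from 52 h to 72 h. Across all 97 embryos, PT_v1_tr_04938 and PT_v1_tr_04939 had a Pearson r of 0.98 in log2 CPM, as had PT_v1_tr_06032 and PT_v1_tr_06033. PT_v1_tr_00003 and PT_v1_tr_00004 had 0.97. These were the 3 most correlated pairs of members with consecutive identifiers, and the least correlated, PT_v1_tr_06565 and PT_v1_tr_06566, had 0.86. No r between other members is given beside them. These values share library and depth and are descriptions. The sequences behind the identifiers are not used here, so whether such neighbours are near-identical copies that share reads is uncertain, and their results should not be counted as separate evidence.

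**Figure D3:**
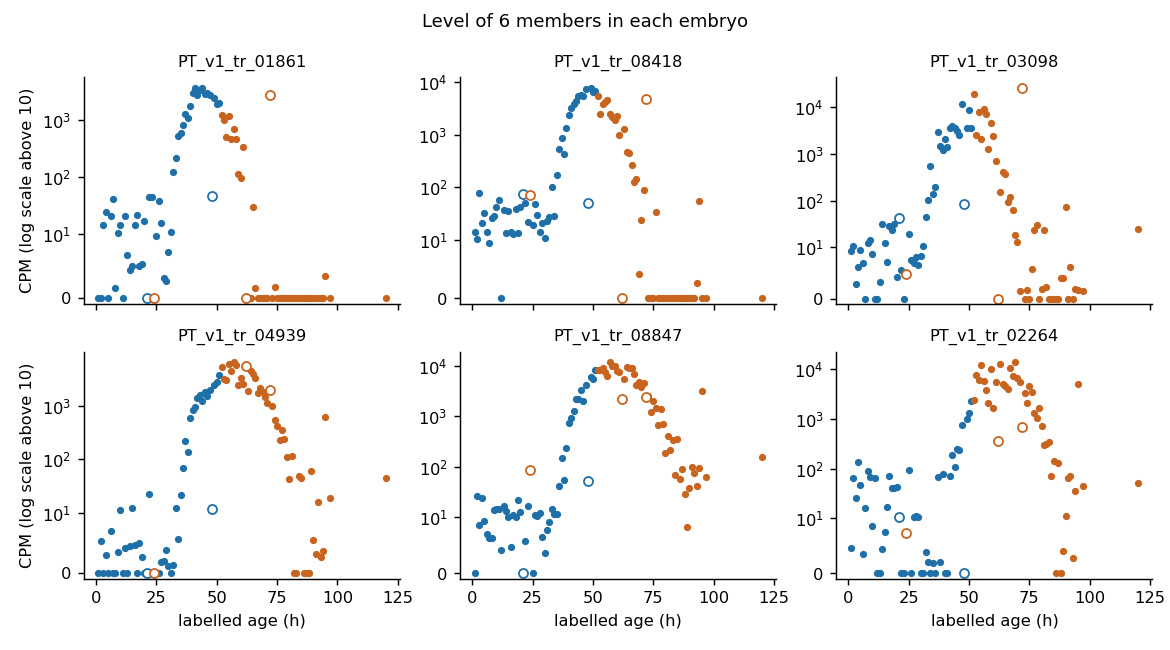
Level in CPM, on an axis that is linear up to 10 CPM and logarithmic above (y axis), against labelled age in hours (x axis) for 6 members, 1 panel each, with blue for embryos numbered 1 to 50, orange for those numbered 51 to 97 and open circles for the libraries labelled 21, 24, 48, 62 and 72 h. PT_v1_tr_01861, PT_v1_tr_08418 and PT_v1_tr_03098 are halved by 61 h when the libraries labelled 62 and 72 h are left out, and PT_v1_tr_04939, PT_v1_tr_08847 and PT_v1_tr_02264 at 68, 70 and 76 h.

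The age at which each member was halved was read from the pooled level of 5 neighbouring embryos, moved along the libraries from 52 h on without those labelled 24, 62, 72 and 120 h, as the first hour from which it stayed below 0.5 of the 52 to 58 h level up to 94 h. It rests on leaving out 62 and 72 h, and where that changes what is said the hour with them kept is given too. It could be given for 96 members, with a median of 73 h, quartiles of 66 and 88 h, and a range from 56 to 94 h. With 62 and 72 h kept the median was 75 h and the range 60 to 94 h. Without them it fell at 52 to 58 h in 3 members, at 59 to 65 h in 19, at 66 to 72 h in 25, at 73 to 80 h in 13 and at 81 to 94 h in 36. The other 39 did not stay halved on this measure, although their pooled ratio was below 0.5. For the last hours read, up to 94 h, the 5 embryos include the library labelled 95 h. Its effect on these numbers was not tested. Without 62 and 72 h the earliest were PT_v1_tr_07687 at 56 h and PT_v1_tr_10272 and PT_v1_tr_04823 at 58 h, but with those libraries kept all 3 were at 75 h. PT_v1_tr_07687 had 0, 61.9 and 251 CPM at 52 to 58 h, and PT_v1_tr_04823 had 0, 63.3 and 225 CPM. Both were at 0 counts in every embryo of 59 to 65 h and 73 to 80 h, yet had 211 and 200.2 CPM in the library labelled 72 h.

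PT_v1_tr_10272 was the most abundant of these early 3. It had 47.4, 2490 and 5019 CPM at 44 to 51 h, 143, 233 and 1447 CPM at 52 to 58 h and 0, 1.65 and 111 CPM at 59 to 65 h. At 66 to 72 h it had 0, 0 and 1259 CPM and at 73 to 80 h 0 in all 8 embryos. The 1259 CPM were in the library labelled 72 h, a level inside the ranges of both 44 to 51 h and 52 to 58 h. The latest hour, 94 h, was shared by 7 members, of which the most abundant were PT_v1_tr_10867, PT_v1_tr_06496 and PT_v1_tr_10626, with pooled levels of 190, 144 and 123 CPM at 52 to 58 h. Since 94 h is the last hour read, staying below the limit rests there on 1 reading. With 3 embryos pooled, none of these 3 named members had an hour. With 7 embryos pooled they were at 78, 93 and 93 h, where 93 h was the latest hour of any member.

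The 38 steep members were divided by this measure into an early and a late set, a division made after the values were seen and given as a description. Without 62 and 72 h, in 17 the level had halved by 65 h, and 11 of these were highest at 44 to 51 h, with 4 highest at 37 to 43 h and another 2 at 52 to 58 h. In the other 21 it halved at 66 h or later, and 16 of these were highest at 52 to 58 h. With 62 and 72 h kept, 7 of the 17 were still halved by 65 h and the other 10 were halved at 75 h, so the division holds only with those libraries left out. The early set held a median of 4.80% of counts at 44 to 51 h without 48 h and 3.29% of counts at 52 to 58 h. Its median was 1.20% at 59 to 65 h without 62 h, then 0.413% at 66 to 72 h without 72 h, and 0.0342% in the embryos of 73 to 80 h. The late set held 2.38, 5.40, 4.41, 3.26 and 0.654% in the same windows. The sets were divided by their fall from 52 to 58 h, so the earlier decline of the early set follows from the division, and levels on either side of 52 h come from libraries of unlike make-up. Beside these windows, in the library labelled 72 h, the early set held 6.91% of counts, more than the 5.57% of the highest embryo of 44 to 51 h, and the late set 1.84%, below the 2.35% of the lowest other embryo of 66 to 72 h. In the library labelled 95 h the early set held 0.134% and the late set 1.41%, within the range of 73 to 80 h for each (0.000752 to 0.151% and 0.223 to 1.46%). In the library labelled 48 h they held 0.0704 and 0.0442%.

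**Figure D4:**
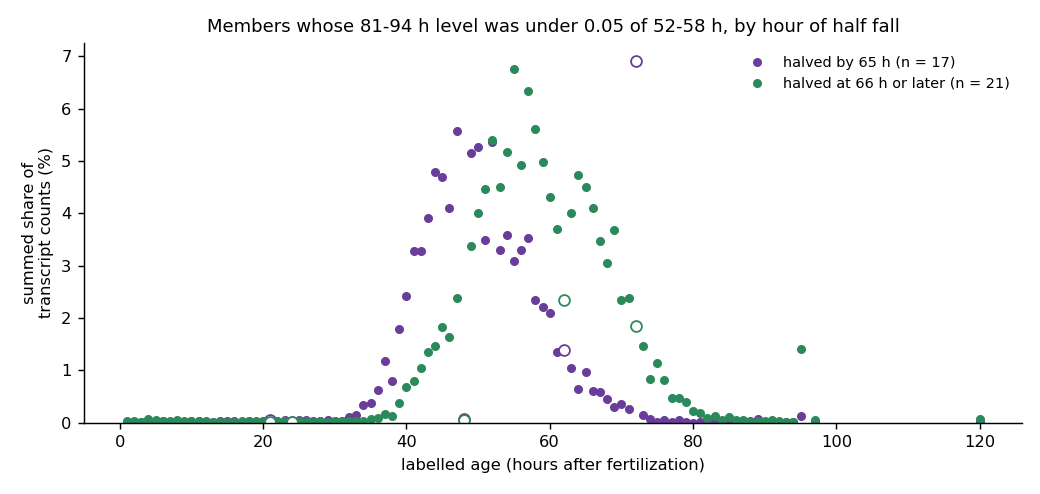
Percent of counts held in each embryo (y axis) by the 17 steep members halved by 65 h and the 21 halved at 66 h or later, with 62 and 72 h left out of that measure, against labelled age in hours (x axis); open circles are the libraries labelled 21, 24, 48, 62 and 72 h. The early set has its highest window median at 44 to 51 h (4.80%) and the late set at 52 to 58 h (5.40%), and at 72 h the early set is above the late one.

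Whether the members rose within the libraries up to 51 h was tested between 44 to 51 h and 37 to 43 h, windows that the rule did not use. The median log2 change of the steep members was 1.16, and 32 of 38 were above 0, against a median of 0.39 over all 135 members, 0.25 over the kept transcripts and 0.03 over all transcripts tested. The share above 0 was alike in members, 99 of 135, and in kept transcripts, 643 of 889. No member passed at an adjusted p of 0.05 in edgeR's quasi-likelihood test with Benjamini-Hochberg adjustment over 7845 transcripts, and neither did any other transcript (0%). At an unadjusted p of 0.05, 22 members were higher (5.53% of all tested were, and 116 of 889 kept transcripts) and 1 lower. DESeq2 called 9 members higher, and 1.01% of all tested. Without the library labelled 48 h, 8 of 135 members rose (1.62% of all tested did), 5 of them steep, and so did 56 of 888 kept transcripts.

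The 8 were PT_v1_tr_02243, PT_v1_tr_04240, PT_v1_tr_06032, PT_v1_tr_06033, PT_v1_tr_08510, PT_v1_tr_08844, PT_v1_tr_08845 and PT_v1_tr_09618, which the rule for names did not all reach and which are named because they were called. Their log2 rises ran from 1.61 ± 0.34 (SE) in PT_v1_tr_08510 to 3.33 ± 0.59 in PT_v1_tr_04240. Also without 48 h, every embryo of 44 to 51 h was above every embryo of 37 to 43 h in 8 of 135 members, against 0.818% of all transcripts and 20 of 888 kept ones. A fit of a straight line over the hours 37 to 51, added after the data were seen, called 11 members rising (0.867% of all tested). Without 48 h it called 28 (4.51% of all tested), of which 22 were among the 38 steep members and 0 among the 66 shallow ones, and it called 128 of 888 kept transcripts. A rise in these hours was thus found in kept transcripts as well as members, and the difference between their shares was not tested.

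PT_v1_tr_04769 rose most steeply by that line. It had 1.97, 28.5 and 244 CPM at 37 to 43 h and 37.5, 728 and 2950 CPM at 44 to 51 h, and without the library labelled 48 h, its lowest, the later window began at 292 CPM and so lay wholly above the earlier one. Its log2 rise was 3.88 ± 1.10 (SE) between the windows (adjusted p = 0.2671, edgeR) and 6.25 ± 0.64 over 10 h by the line without 48 h (adjusted p = 1.412e-05, edgeR). It was at 3279, 4370 and 6121 CPM at 52 to 58 h.

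PT_v1_tr_08291 had 0, 22.9 and 57.0 CPM at 37 to 43 h and 0, 193 and 1294 CPM at 44 to 51 h, windows that overlapped with and without 48 h. Its log2 change was 3.96 ± 1.28 (SE) between windows (adjusted p = 0.3407, edgeR) and it rose by 4.97 ± 0.93 over 10 h by the line without 48 h (adjusted p = 0.00503, edgeR). It reached 865, 2463 and 3902 CPM at 52 to 58 h. PT_v1_tr_02264, described above, rose by 4.72 ± 0.83 over 10 h by the same line (adjusted p = 0.003344, edgeR). The members with the largest fitted falls between these windows did not pass the test. PT_v1_tr_07071 had 0, 16.3 and 197 CPM at 37 to 43 h and 0, 9.37 and 35.6 CPM at 44 to 51 h (log2 change -1.78 ± 0.97 SE, adjusted p = 0.6189, edgeR). PT_v1_tr_06496 had 40.7, 88.4 and 147 CPM and then 0, 29.6 and 114 CPM. PT_v1_tr_05992 had 13.1, 99.8 and 218 CPM and then 0, 35.9 and 106 CPM. In all 3 the windows overlapped.

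The fall was tested among embryos of 59 h and later that the rule did not use, in 1 fit over 59 to 65 h, 66 to 72 h, 73 to 80 h and 95 to 120 h, with each later window compared with the same 7 embryos of 59 to 65 h. At 66 to 72 h no member was lower at an adjusted p of 0.05 in edgeR, nor was any of 7444 transcripts (0%). At an unadjusted p of 0.05, 2 members were lower (1.92% of all tested were) and 2 higher, and DESeq2 called 0 lower (0% of all tested). The median log2 change of the members was -0.06, against 0.22 over all tested. Without the libraries labelled 62 and 72 h it was -0.59, against 0.01, with 10 members lower at an unadjusted p of 0.05 (3.39% of all tested, and 13 of 888 kept transcripts) and again none at an adjusted p (0% of 7442), and 30 of the 36 steep members tested were below 0. That fit tested 133 members, because PT_v1_tr_04823 and PT_v1_tr_07687 did not reach the level required.

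At 73 to 80 h the fitted changes of the members lay mostly below 0, and 8 passed the test. The median log2 change was -1.12 over the 135 members, -3.05 over the 38 steep ones and -0.63 over the 66 shallow ones, against 0.11 over all tested and 0.17 over the kept transcripts, and 110 of 135 members were below 0 against 326 of 888 kept transcripts. Without 62 and 72 h the medians were -1.35 over the members and -0.03 over the kept transcripts, and 113 of 133 and 461 of 888 were below 0. Members, kept transcripts and the steep and shallow groups were divided by their levels in the window right after 73 to 80 h. Differences between these sets in the comparisons with later windows may thus follow in large part from that division. They are given as descriptions. In edgeR's quasi-likelihood test 8 members fell and 0 rose at an adjusted p of 0.05, where 0.215% of all tested fell, or 16 of 7444, and 0 of 888 kept transcripts did. Of the 8, 6 were steep. At an unadjusted p of 0.05 there were 37 lower members (4.85% of all tested were lower) and 0 higher. Without the libraries labelled 62 and 72 h, 15 of 133 members fell (0.443% of all tested did), 12 of them steep, and 2 of 888 kept transcripts did. Every embryo of 59 to 65 h without 62 h was above every embryo of 73 to 80 h in 22 of 133 members, 20 of them among the 36 steep ones, against 0.578% of all transcripts and 1 of 888 kept ones. A straight line over the hours 59 to 80, added after the data were seen, fell in 16 of 135 members (0.378% of all tested). Without 62 and 72 h it fell in 27 of 133 (1.10% of all tested), 24 of them among the 36 steep members, and in 4 of 888 kept transcripts.

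**Figure D5:**
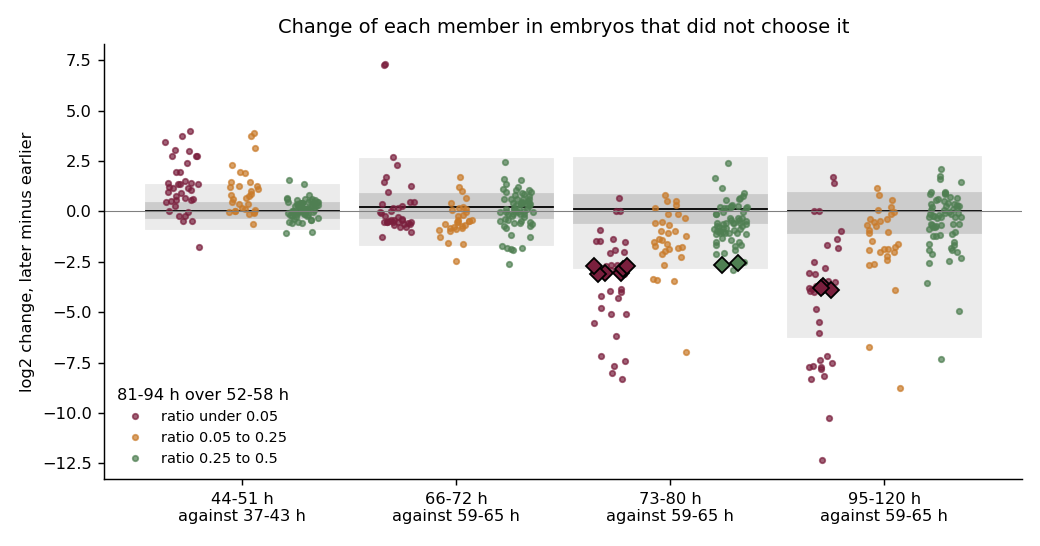
Fitted log2 change of each member (y axis, points, coloured by the ratio of 81 to 94 h over 52 to 58 h) in the tested comparisons (x axis), with grey boxes for the 5 to 95% and 25 to 75% ranges of all transcripts tested, a line at their median, and diamonds for members past an adjusted p of 0.05 in edgeR. At 73 to 80 h against 59 to 65 h the members' median is -1.12 and that of all tested 0.11, and 8 members are past the threshold.

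The 8 that fell are described in 3 groups, by their identifiers and levels. In the first are the neighbours PT_v1_tr_04936, PT_v1_tr_04938 and PT_v1_tr_04939. PT_v1_tr_04936 was lower by a log2 change of -3.07 ± 0.57 (SE, adjusted p = 0.001535, edgeR) and PT_v1_tr_04939 by -3.03 ± 0.55 (adjusted p = 0.001191, edgeR). PT_v1_tr_04938 had 1765, 2841 and 3952 CPM at 59 to 65 h and 32.0, 316 and 739 CPM at 73 to 80 h, a log2 change of -3.11 ± 0.60 (SE, adjusted p = 0.003868, edgeR). In all 3 the windows did not overlap.

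In the second group were PT_v1_tr_07436, PT_v1_tr_08844 and PT_v1_tr_08845, with nearly equal levels. PT_v1_tr_07436 had 2131, 2799 and 4521 CPM at 59 to 65 h and 169, 417 and 940 CPM at 73 to 80 h (log2 change -2.84 ± 0.51 SE, adjusted p = 0.001191, edgeR). PT_v1_tr_08844 had 2486, 2887 and 4721 CPM and then 209, 445 and 1051 CPM (log2 change -2.73 ± 0.50 SE, adjusted p = 0.001302, edgeR). PT_v1_tr_08845 had 2254, 2822 and 4261 CPM and then 190, 376 and 902 CPM (log2 change -2.70 ± 0.49 SE, adjusted p = 0.001191, edgeR). None of these windows overlapped. By the line over 59 to 80 h without 62 and 72 h, PT_v1_tr_07436 fell by 2.28 ± 0.17 (SE) on the log2 scale over 10 h (adjusted p = 7.688e-13, edgeR).

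In the third were PT_v1_tr_01009 and PT_v1_tr_09479, shallow members whose highest values were in the library labelled 62 h. PT_v1_tr_01009 had 62.6, 215 and 13139 CPM at 59 to 65 h and 23.5, 108 and 198 CPM at 73 to 80 h (log2 change -2.64 ± 0.60 SE, adjusted p = 0.02572, edgeR). PT_v1_tr_09479 had 48.0, 160 and 14560 CPM and then 23.1, 107 and 176 CPM (log2 change -2.57 ± 0.61 SE, adjusted p = 0.03997, edgeR). That library holds 3555 counts in all, and the windows of both transcripts overlapped. Without 62 and 72 h PT_v1_tr_01009 had a log2 change of -2.41 ± 0.58 (SE, adjusted p = 0.03648, edgeR), while PT_v1_tr_09479 was no longer past the threshold (-2.29 ± 0.59 SE, adjusted p = 0.06071, edgeR).

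The largest fitted falls belonged to members that missed the threshold. PT_v1_tr_08418 had 51.3, 6089 and 7875 CPM at 44 to 51 h, 2160, 3817 and 5427 CPM at 52 to 58 h and 0, 984 and 2322 CPM at 59 to 65 h. At 66 to 72 h it had 4.11, 128 and 4888 CPM, and at 73 to 80 h it was at 0 in 7 of 8 embryos and at 34.3 CPM in the other. Only the library labelled 62 h, at 0, fell into the later range at 59 to 65 h. Its log2 change was -8.02 ± 1.71 (SE, adjusted p = 0.0514, edgeR) and without 62 and 72 h -8.26 ± 1.28 (adjusted p = 0.003095, edgeR). PT_v1_tr_01861 had 47.4, 2525 and 3508 CPM at 44 to 51 h, a median above that at 52 to 58 h but from libraries of unlike make-up. At 59 to 65 h it had 0, 29.8 and 336 CPM. It had 0, 0 and 2720 CPM at 66 to 72 h and a single count, 1.68 CPM, in 1 of 8 embryos of 73 to 80 h, for a pooled level 418-fold lower than at 59 to 65 h (exact 95% interval of counting error 74.6 to 16544). Its adjusted p was 0.1131 in edgeR and 0.03244 without 62 and 72 h.

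PT_v1_tr_06302 had 23.7, 370 and 931 CPM at 44 to 51 h, 0, 40.0 and 196 CPM at 59 to 65 h and 0, 0 and 559 CPM at 66 to 72 h. It had 0 counts in all 8 embryos of 73 to 80 h, at least 113-fold less than at 59 to 65 h (adjusted p = 0.05914, edgeR). Since 3 of 7 embryos of 59 to 65 h were also at 0, its windows overlapped. PT_v1_tr_03098, with the values above, had a log2 change of -7.44 ± 1.96 (SE, adjusted p = 0.1102, edgeR), and of -7.68 ± 1.24 without 62 and 72 h (adjusted p = 0.003095, edgeR). PT_v1_tr_08847 changed by -2.65 ± 0.62 (SE, adjusted p = 0.05119, edgeR), and by -2.89 ± 0.64 without those libraries (adjusted p = 0.04151, edgeR).

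PT_v1_tr_04769 and PT_v1_tr_08291, which had the largest fitted changes between 37 to 43 h and 44 to 51 h, differed here in how far they went down. PT_v1_tr_04769 had 0, 4705 and 5683 CPM at 59 to 65 h, the 0 being the library labelled 62 h, and 472, 1213 and 2092 CPM at 73 to 80 h. Its log2 change was -1.97 ± 0.52 (SE, adjusted p = 0.08882, edgeR), and -2.21 ± 0.43 without 62 and 72 h (adjusted p = 0.01849, edgeR). PT_v1_tr_08291 had 0, 824 and 2085 CPM and then 0, 0 and 227 CPM, with counts in 3 of 8 embryos of the later window (log2 change -4.31 ± 1.30 SE, adjusted p = 0.1121, edgeR).

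Some shallow members had higher fitted levels in the later window, none past the threshold. PT_v1_tr_03147 had 0, 0 and 35.2 CPM at 59 to 65 h and 0, 42.4 and 160 CPM at 73 to 80 h (log2 change 2.40 ± 1.54 SE, adjusted p = 0.9737, edgeR). PT_v1_tr_07730 had 0, 23.1 and 70.5 CPM and then 0, 73.9 and 228 CPM (log2 change 1.68 ± 1.36 SE, adjusted p = 1, edgeR). PT_v1_tr_10795 had 0, 42.2 and 57.0 CPM and then 0 in 6 of 8 embryos with 630 CPM in 1 (log2 change 1.16 ± 1.42 SE, adjusted p = 1, edgeR). The windows overlapped in each, and at such levels a difference was not detectable with these embryos.

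The members most abundant in the earliest embryos were also shallow. PT_v1_tr_02123 stood at a pooled 2521 CPM at 1 to 23 h and at 383, 1068 and 2361 CPM at 52 to 58 h. PT_v1_tr_07600 stood at 1399 CPM and then at 183, 4483 and 11363 CPM. PT_v1_tr_07793 stood at 1015 CPM and then at 765, 1013 and 1521 CPM. The ratio of 81 to 94 h over 52 to 58 h was 0.308, 0.455 and 0.484 in the same order. None of these 3 passed the test at 73 to 80 h, and their log2 changes were -0.10 ± 0.81, -0.88 ± 1.02 and -0.60 ± 0.47 (SE).

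At 95 to 120 h the loss was still seen in the steep members, with the library labelled 95 h apart. The median log2 change against 59 to 65 h was -1.04 over the 135 members and -3.79 over the steep ones, against 0.01 over all tested. Without the library labelled 95 h these medians were -1.98, -7.15 and -0.20. In edgeR 3 members fell and 0 rose (0.0537% of all tested fell, and 0 of 888 kept transcripts), with 34 lower at an unadjusted p of 0.05 (5.83% of all tested). Without 62 and 72 h the count was again 3 (0.0806% of all tested). The 3 were PT_v1_tr_07436, PT_v1_tr_08844 and PT_v1_tr_08845. PT_v1_tr_07436 had 635 CPM at 95 h, 34.3 CPM at 97 h and 59.2 CPM at 120 h (log2 change -3.70 ± 0.80 SE, adjusted p = 0.02897, edgeR). PT_v1_tr_08844 had 576, 35.9 and 45.3 CPM (log2 change -3.88 ± 0.80 SE, adjusted p = 0.0215, edgeR). PT_v1_tr_08845 had 521, 43.6 and 31.4 CPM (log2 change -3.78 ± 0.78 SE, adjusted p = 0.0215, edgeR). Each was below all 7 embryos of 59 to 65 h, and in each the embryo labelled 95 h was the highest of the 3, inside the range of 73 to 80 h. The count was 22 without the library labelled 95 h and 0 without that labelled 97 h or that labelled 120 h, where all 3 lost their call.

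Other members were also higher at 95 h than in every embryo of 81 to 94 h. PT_v1_tr_02264 had 5074 CPM at 95 h, 43.6 CPM at 97 h and 52.3 CPM at 120 h. PT_v1_tr_08847 had 3082, 62.4 and 157 CPM. PT_v1_tr_04769 had 2370, 321 and 199 CPM. In these the value at 95 h was above every embryo of 81 to 94 h, while the values at 97 and 120 h were within the range of that window. PT_v1_tr_08418, PT_v1_tr_06302 and PT_v1_tr_10272 were at 0 counts in all 3 embryos. PT_v1_tr_08418 was thus at least 666-fold below its 59 to 65 h level.

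A few shallow members were higher at 95 to 120 h than when the rule chose them. PT_v1_tr_02811 had 195, 122 and 139 CPM at 95, 97 and 120 h, 2.66-fold its pooled 57.8 CPM at 52 to 58 h. PT_v1_tr_01113 had 328, 40.5 and 52.3 CPM, 2.33-fold its 66.5 CPM, a value set by the embryo labelled 95 h. PT_v1_tr_05332 had 48.7, 173 and 185 CPM, 2.17-fold its 58.4 CPM. Over all members, 48 of 135 were at 0.5 or more of their 52 to 58 h level at 95 to 120 h, although all were below it at 81 to 94 h. By embryo the number was 60 at 95 h, 36 at 97 h and 38 at 120 h.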

How the data were processed

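The authors deposited 1 table of whole-number read counts per transcript, not normalized, with 1 column for each of 97 embryos. Each column was matched to its sample by the number in its name, and 0 columns had no sample. The tools named, per the submitters' processing notes, are HTSeq 0.5.4p3, CASAVA 1.8 and Bowtie2 2.1.0. Their settings and roles are not given in the sources used here, nor is any genome build. No molecular identifiers are named in the labels' protocols, so a count is a read and copies made by amplification may be among them, and intervals and floors (3 counts) cover counting error only. The table's 92 spike-ins and 5 summary rows, which held 4.09 and 57.7% of counts, stayed out of totals and tests.

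The members, the lists and the rule for names were chosen with earlier results of these data known. CPM used totals without PT_v1_tr_02502, which the rule left out. At 21 h the total was 322498 counts with it and 94681 without it. Tests used edgeR 4.0.16 (R 4.3.3, quasi-likelihood, robust, TMM scaling, transcripts with a pooled level of at least 5 CPM over the embryos of the fit) on the whole table, with Benjamini-Hochberg adjusted p under 0.05 over all transcripts tested. Log2 changes are later over earlier, and the standard error (SE) is the absolute change over the square root of F. Alternatives were DESeq2 1.42.0, other scalings, no filter, PT_v1_tr_02502 left out, other embryos in the fit, and libraries left out. Lines over the hours, and the fit without 62, 72 and 95 h, were added after the data were seen. The code was tested on simulated data.

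Named were the 6 members with the lowest ratio, the 6 highest at 52 to 58 h, the 3 highest at 1 to 23 h, the 3 with the largest and smallest changes in each of 2 comparisons, the 3 highest at 95 to 120 h relative to 52 to 58 h, the 3 earliest and 3 latest halved, the 3 most correlated pairs with consecutive identifiers, and 2 on either side of the limit. Members that passed a test are named as well. Nothing says that embryos of a window were replicates of 1 culture. Levels of different transcripts are not per length, since CEL-Seq counts 3′ ends.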

Additional observations from a re-analysis of the deposited data

Results flagged for a closer look

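Among 104 groups of 4 to 10 embryos whose values are printed above, 22 held 1 embryo far from all others, with its gap to the nearest one large against the range of the group. The limit used would flag about 1 in 20 groups by chance only if values followed a normal distribution. Some of these groups held counts in only 1 embryo, whose gap then equals the whole range. The number flagged by chance is therefore not known, and 22 of 104 is no measure of an excess. Transcripts of the same set also move together, so the groups are not independent. For the members' summed share these were the library labelled 6 h at 1 to 6 h (1.14% of counts) and that labelled 48 h at 44 to 51 h (1.50%).

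The library labelled 72 h was far above the other embryos of 66 to 72 h in 6 members: PT_v1_tr_01861 (2720 CPM), PT_v1_tr_06302 (559 CPM), PT_v1_tr_08418 (4888 CPM), PT_v1_tr_10272 (1259 CPM), PT_v1_tr_03098 (26387 CPM) and PT_v1_tr_08510 (13174 CPM). All 6 were among the steep members halved by 65 h on the measure that leaves out 62 and 72 h. The library labelled 48 h was far below the others of its window in PT_v1_tr_01861 (47.4 CPM), PT_v1_tr_08418 (51.3 CPM) and PT_v1_tr_08510 (78.9 CPM). The library labelled 62 h was far above the others in PT_v1_tr_01009 (13139 CPM) and PT_v1_tr_09479 (14560 CPM) and far below in PT_v1_tr_04769 (0 CPM). What sets these libraries apart was not tested.

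Single values far from their window, in other libraries, were PT_v1_tr_01861 at 61 h (336 CPM) and at 74 h (1.68 CPM), PT_v1_tr_08418 at 76 h (34.3 CPM), PT_v1_tr_08510 at 73 h (851 CPM) and PT_v1_tr_02264 at 43 h (184 CPM). The others were PT_v1_tr_08291 at 50 h (1294 CPM), PT_v1_tr_07071 at 41 h (197 CPM) and PT_v1_tr_10795 at 80 h (630 CPM).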

How the results depend on the processing

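Each count of members is followed by that over all transcripts tested in the same fit. For 44 to 51 h against 37 to 43 h, the count higher, 0 (of 0), became 9 (of 79) with DESeq2 and 8 (of 127) without the library labelled 48 h. The added line over the hours gave 11 (of 68), or 28 (of 353) without 48 h. For 73 to 80 h against 59 to 65 h, the count lower, 8 (of 16), became 14 (of 37) with spike-in totals, 28 (of 59) with DESeq2, 15 (of 33) without 62 and 72 h and 27 (of 57) with only those 2 windows in the fit. The line over the hours gave 16 (of 28), 15 (of 37) without 62 h, 30 (of 71) without 72 h and 27 (of 81) without both. For 95 to 120 h, the count, 3 (of 4), became 25 (of 64) with DESeq2, 5 (of 6) with no filter on low values and 7 (of 15) with only those 2 windows. It was 0 to 22 (of 0 to 31) when 1 of the 3 embryos was left out and 22 (of 42) without 62, 72 and 95 h. For 66 to 72 h it was 0 under every alternative run. Spike-in scaling moved the median log2 change of all transcripts by -0.12, -0.19, -0.37 and 0.33 in the comparisons in the order of the text. DESeq2 size factors moved it by 0.21 and 0.15 and total counts by 0.13 and -0.10 at most. Under each scaling the members' median at 73 to 80 h was below that of all tested.

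The log2 change at 73 to 80 h turned in sign, with no call, for PT_v1_tr_07071 (-0.14 with spike-ins), PT_v1_tr_02123 (0.12 when scaled by size factors, 0.0266 by totals, 0.13 in the DESeq2 test) and PT_v1_tr_06496 (-0.20 with spike-ins). PT_v1_tr_01009 lost its call with total counts, and PT_v1_tr_09479 with total counts, with no filter and without 62 h. The causes were not tested. The median hour of halving ran from 69 to 75 h over the alternatives, and keeping 62 and 72 h moved 10 of the 17 early members to 75 h. Some members moved far more with the number of embryos pooled. PT_v1_tr_02059 went from 92 h to 93 h with 3 embryos and 63 h with 7, and PT_v1_tr_09618 from 87 h to 86 and 63 h. Others hardly moved, such as PT_v1_tr_06549, at 88 h and then at 88 and 89 h. An hour could be given for 87 members with 3 embryos and for 99 with 7. Late hours of single members are thus not shown to be stable. No paired analysis was possible because each embryo is a separate age and the numbers within a window only name the embryos. Depth limits the members near 50 CPM, many of which were at 0 in single embryos.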
